A study of Mus musculus with 16 samples.

Results

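The genes described here belong to mature, mainly fast-twitch skeletal muscle fibres and build the sarcomere, couple excitation to contraction or supply energy. They were chosen by name from a list of 44 genes, and every probe set whose only platform gene symbol was on the list was taken. Such a probe set existed for 43 of the 44 genes, Xirp2 being the one without, and together they made 72 of the 34945 probe sets with a single symbol, which stand for 18193 genes. More than 1 probe set read 16 of the 43 genes.

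Each array held total RNA from incisional wounds on the back of wildtype C57BL/6 mice, labelled female, in a mechanical loading model of hypertrophic scarring. Wounds were either left unstressed or stressed, with harvest at day 6 (loading for 48 hours) or at day 14 (loading for 10 days). There were 4 arrays in each of the 4 groups, and the design text counts 4 mice per group. A later day therefore also meant a longer loading time in the stressed wounds. P-values measure only the spread between these 16 arrays, and their number limits the precision. The deposited signals are on a log scale, read here as log2, and the authors had centred each probe set. A value of 0 is therefore not the absence of a transcript, no level could be judged as present or absent, and no probe set was set against another by level.

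Skeletal muscle contracts when calcium released from the sarcoplasmic reticulum lets myosin thick filaments pull on actin thin filaments, which are anchored at the Z-disc. Fast fibres carry their own isoforms of myosin, troponin and the calcium pump, and draw on creatine phosphate and glycogen for rapid supply of ATP. In the back skin of mice a thin sheet of striated muscle, the panniculus carnosus, lies under the fat layer and is cut by a full-thickness incision, and its fibres are the usual source of these transcripts in whole skin.

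The arrays did not all match their labels or each other. Xist, the non-coding RNA of the inactive X chromosome, was high in replicates 3 and 4 of both day 14 groups, with means over 3 probe sets from 4.38 to 5.39, and lay between -0.38 and 0.52 in the other 12 arrays. The mean over 9 probe sets of Y-linked genes was from -1.68 to -1.34 in those 4 arrays and from -0.21 to 0.27 in the other 12. Both loading groups at day 14 held 2 arrays of each kind, while all 8 day 6 arrays were of the kind with low Xist, against the label that gives every mouse as female. Within each probe set of the fast muscle genes, the spread at day 14 was the wider: the median SD over the 72 probe sets was 0.31 in both day 6 groups, 0.73 in unstressed and 1.42 in stressed wounds at day 14, against 0.18 to 0.25 over all probe sets.

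At day 14 the fast muscle genes were lower in stressed than in unstressed wounds. Of the 72 probe sets, 42 fell and 0 rose at an adjusted p under 0.05 with limma, against 4.04% of all probe sets that fell and 3.31% that rose. The calls covered 34 of the 43 genes, where 1223 of all 18193 genes had a probe set that fell. The median difference over the 72 probe sets was -2.16, where that over all probe sets was 0.0052, and 69 of the 72 differences were negative. At an unadjusted p under 0.05 there were 60 negative differences and 1 positive one, the Apobec2 probe set 1444348_at. The 4 stressed arrays lay wholly below the 4 unstressed ones in 8 of the 72 probe sets, or 11.1%, against 4.52% of all probe sets. In bulk tissue, fewer muscle fibres and less of these transcripts per fibre cannot be told apart.

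The calls rested on the spread shared by all 16 arrays: with the 8 day 14 arrays alone, 1 of the 72 probe sets passed, that of Apobec2, against 0.349% of all probe sets, while 55 had an unadjusted p under 0.05. The SEs and adjusted p given for loading at day 14 use that shared spread unless another fit is named. It includes the day 6 arrays, which varied less (median SD 0.31 against 0.73 and 1.42), so these SEs tend to understate the day 14 spread. With the replicate number as a block, since same-numbered day 14 arrays deviated together, 42 passed in all 16 arrays, 39 of them the same, and 7 in the day 14 arrays alone, against 6.26% and 1.54% of all probe sets. Different-numbered day 14 arrays of the same Xist level deviated together as well. Between replicates 1 and 2 of the day 14 groups, the arrays with low Xist, 56 probe sets passed with a median of -3.40, against 18.7% of all probe sets, and between replicates 3 and 4 only 2 passed with a median of -0.998, against 2.29%. Those 2 were Apobec2 1417889_at and Fbxo32 1417522_at. Both of these fits kept the day 6 arrays in the shared spread, with 2 arrays in each day 14 group. The count was 54 without stressed replicate 4, against 13.7% of all probe sets, and fell to 27 without unstressed replicate 2, against 5.07%, and to 28 without stressed replicate 2, against 2.71%. In all 16 fits that left out 1 array, 25 of the 42 calls were kept.

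**Figure D1:**
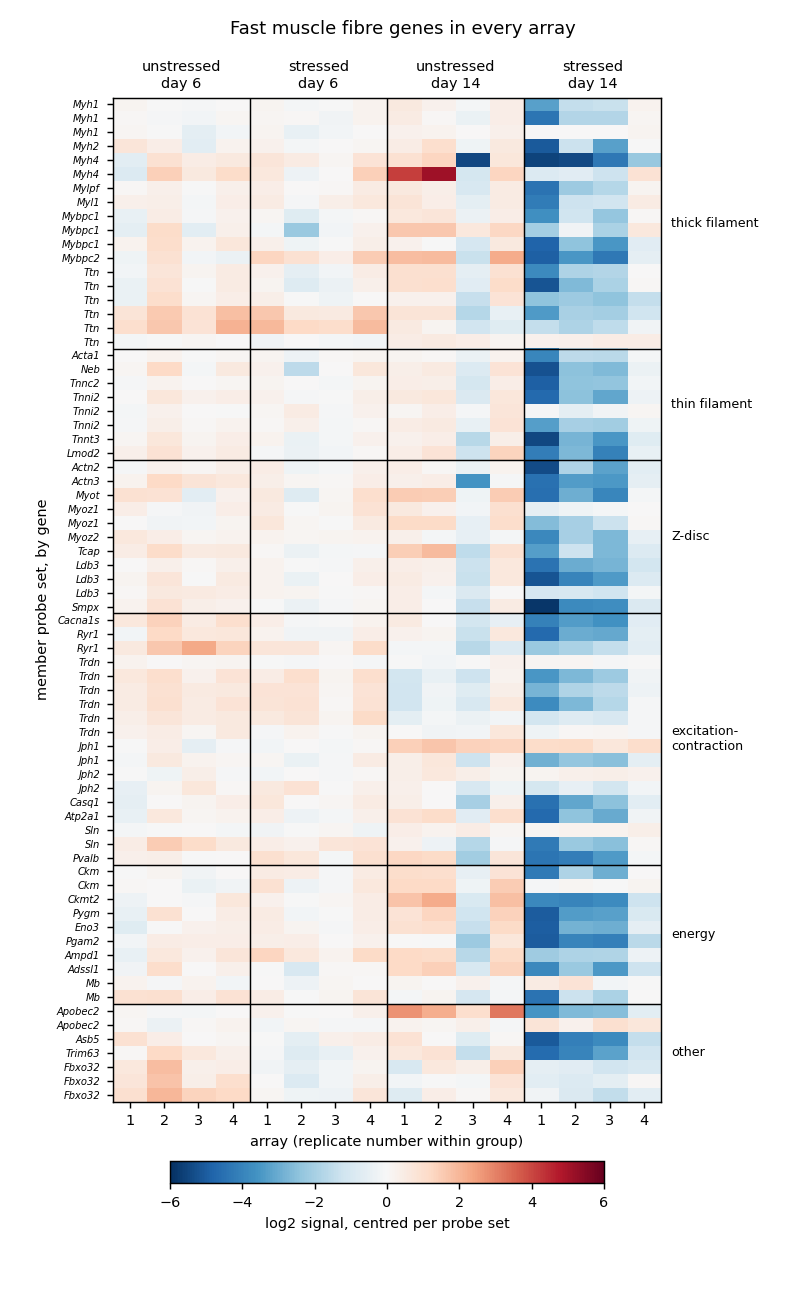
Centred log2 signal of the 72 member probe sets (rows, by gene, grouped by role) in the 16 arrays (columns, replicates 1 to 4 of each group). In stressed wounds at day 14, replicates 1, 2 and 3 are low across most rows and replicate 4 is near 0; in unstressed wounds at day 14, replicate 3 is lower than the other replicates, with a median of -0.85.

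The arrays of a group differed along the whole list. The median over the 72 probe sets was -3.83, -1.96, -2.13 and -0.22 in replicates 1 to 4 of the stressed wounds at day 14, and 0.43, 0.40, -0.85 and 0.60 in the unstressed wounds of that day. At day 6 it was 0.078, 0.61, 0.11 and 0.38 without and 0.26, -0.030, -0.022 and 0.33 with loading, so all 8 arrays lay close to 0. The low values at day 14 were thus spread over 3 stressed arrays and, to a lesser depth, 1 unstressed array.

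Stressed replicate 1 was the lowest of all 16 arrays in 53 of the 72 probe sets, or 73.6%, where it was the lowest in 7.31% of all probe sets. Stressed replicate 4 was the highest of its group in 64, or 88.9%, against 31.4% of all. Unstressed replicate 3 was the lowest of its group in 58, or 80.6%, against 26.7% of all. A value below -1 was read by 56, 52, 58 and 9 of the 72 probe sets in stressed replicates 1 to 4, and by 3, 0, 29 and 0 in the unstressed ones.

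Promoter sequences are shown for 4 members: Apobec2 and Ckmt2, which led their roles at day 14, Trim63, a ubiquitin ligase of wasting muscle, and Myh4, the myosin of the fastest fibres. Each is the 250 bases before the annotated start, 5′ to 3′ on the gene's strand, from RefSeq on GRCm38.p6: Apobec2 at chr17:48432729-48432978 on the minus strand, Ckmt2 at chr13:91876886-91877135 on the minus strand, Myh4 at chr11:67237562-67237811 on the plus strand and Trim63 at chr4:134314870-134315119 on the plus strand. Capitals mark matches to 4 patterns: the E-box CAGCTG, bound by myogenic bHLH factors, the MEF2 site, the CArG box of serum response factor, and TATAAA.
Apobec2: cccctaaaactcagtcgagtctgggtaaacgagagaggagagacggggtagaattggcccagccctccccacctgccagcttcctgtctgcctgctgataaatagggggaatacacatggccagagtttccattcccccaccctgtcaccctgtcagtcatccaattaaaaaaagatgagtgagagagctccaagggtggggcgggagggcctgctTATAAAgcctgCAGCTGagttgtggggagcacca
Ckmt2: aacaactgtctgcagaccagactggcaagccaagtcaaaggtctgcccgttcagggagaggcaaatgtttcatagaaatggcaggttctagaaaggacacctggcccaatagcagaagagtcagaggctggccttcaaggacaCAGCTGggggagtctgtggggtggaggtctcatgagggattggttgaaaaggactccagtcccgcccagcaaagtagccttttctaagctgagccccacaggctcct
Myh4: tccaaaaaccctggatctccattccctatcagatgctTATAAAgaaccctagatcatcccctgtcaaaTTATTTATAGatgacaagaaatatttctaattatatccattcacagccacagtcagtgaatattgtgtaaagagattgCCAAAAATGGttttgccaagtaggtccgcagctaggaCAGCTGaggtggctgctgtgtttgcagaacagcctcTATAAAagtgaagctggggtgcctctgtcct
Trim63: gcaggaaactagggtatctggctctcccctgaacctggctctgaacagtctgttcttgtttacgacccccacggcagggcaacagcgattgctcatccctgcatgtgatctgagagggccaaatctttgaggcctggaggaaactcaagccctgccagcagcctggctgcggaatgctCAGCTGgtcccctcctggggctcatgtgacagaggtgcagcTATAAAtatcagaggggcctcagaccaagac

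All 4 windows held the E-box CAGCTG, at -23 to -18 before the start in Apobec2, -107 to -102 in Ckmt2, -67 to -62 in Myh4 and -72 to -67 in Trim63. TATAAA stood at -34 to -29 in Apobec2 and at -31 to -26 in both Myh4 and Trim63, and Myh4 held a further one at -213 to -208. Only Myh4 of the 4 also had a MEF2 site, at -182 to -173, and a CArG box, at -104 to -95. Windows were given for 31 of the 43 genes and for 27025 genes in all. CAGCTG, which reads the same on both strands, occurred in 17 of the 31 (54.8%) and in 14.7% of all genes' windows. The MEF2 site, searched on both strands, occurred in 7 (22.6%) and 3.42%, and the CArG box in 4 (12.9%) and 1.62%. TATAAA, searched on the gene's strand, occurred in 6 (19.4%) and 8.94%. The MEF2, CArG and TATAAA patterns are rich in A and T and can overlap, though no marked matches do in the sequences shown. These matches are descriptions of letters and say nothing of binding.

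Thick filament genes fell in 11 of 18 probe sets and 5 of 8 genes at day 14, with a median of -2.13. Mybpc2, the fast isoform of the myosin-binding protein C that sits on the thick filament, led them. Its arrays, replicates 1 to 4 throughout, read -0.27, 0.90, -0.14 and -0.35 in unstressed and 1.29, 0.89, 0.40 and 1.52 in stressed wounds at day 6. At day 14 they read 1.86, 1.88, -1.36 and 2.24 in unstressed and -4.90, -3.51, -4.29 and -0.56 in stressed wounds. Unstressed replicate 3 and stressed replicate 4 lay nearest to each other and overlapped, while the other 6 arrays were far apart. The difference was -4.47 (SE 0.83, adjusted p = 0.0062), 22.2-fold lower on the ratio scale. The slower isoform gene Mybpc1 fell in all 3 of its probe sets, by most in 1455645_at at -2.80 (SE 0.61, adjusted p = 0.014).

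The fast myosin heavy chains, the motors of types IIx, IIa and IIb fibres, are encoded by Myh1, Myh2 and Myh4. Myh4 had the widest spread and did not pass. Probe set 1427026_at read -0.63, 0.91, 0.44 and 0.58 in unstressed and 0.70, 0.47, 0.11 and 0.81 in stressed wounds at day 6. At day 14 it read 0.93, 1.29, -5.45 and 0.68 in unstressed and -5.58, -5.44, -4.27 and -2.30 in stressed wounds. All 4 stressed arrays were low, and so was unstressed replicate 3, which lay at the level of the 2 lowest stressed arrays. The difference was -3.76 (SE 1.13, adjusted p = 0.056). The second Myh4 probe set, 1458368_at, read -0.82, 1.44, 0.57 and 1.12 in unstressed and 0.62, -0.28, 0.0096 and 1.41 in stressed wounds at day 6. Its day 14 values were 4.14, 5.07, -1.07 and 1.31 in unstressed and -0.82, -0.67, -1.26 and 0.89 in stressed wounds. Here 2 unstressed arrays stood high while the stressed arrays stayed near the day 6 range, and the difference was -2.83 (SE 0.998, adjusted p = 0.096).

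Myh2 read 0.71, 0.39, -0.62 and 0.22 in unstressed and 0.28, -0.13, 0.038 and 0.13 in stressed wounds at day 6. At day 14 its values were 0.45, 0.998, -0.25 and 0.58 in unstressed and -5.02, -1.31, -3.26 and -0.038 in stressed wounds. Stressed replicates 1 and 3 were far below every other array, replicate 4 was within the unstressed range, and Myh2 fell by a log2 difference of -2.85 (SE 0.73, adjusted p = 0.029). Myh1 probe set 1427520_a_at read 0.16, -0.042, -0.054 and 0.042 in unstressed and 0.14, -0.13, -0.044 and 0.23 in stressed wounds at day 6 and 0.59, 0.24, -0.14 and 0.42 in unstressed and -3.27, -1.41, -1.33 and 0.23 in stressed wounds at day 14. Replicates 1, 2 and 3 of the stressed group lay below all unstressed arrays, and the difference was -1.72 (SE 0.47, adjusted p = 0.037). Myh1 1427868_x_at read 0.051, -0.051, -0.16 and 0.097 in unstressed and 0.13, 0.086, -0.19 and 0.21 in stressed wounds at day 6 and 0.49, 0.081, -0.40 and 0.39 in unstressed and -4.40, -1.76, -1.77 and 0.097 in stressed wounds at day 14. Its stressed replicates 1, 2 and 3 likewise lay below all unstressed arrays, and it fell by -2.10 (SE 0.60, adjusted p = 0.045). This call was lost in 15 of the 16 fits without 1 array, and with the replicate block (adjusted p = 0.054). The third Myh1 probe set, 1452465_at, hardly varied: 0.12, -0.0084, -0.60 and -0.19 in unstressed and 0.17, -0.44, -0.18 and 0.0084 in stressed wounds at day 6 and 0.27, 0.20, 0.022 and 0.30 in unstressed and 0.014, 0.036, 0.042 and 0.19 in stressed wounds at day 14. Its difference was -0.13 (SE 0.16, adjusted p = 0.68). Probe sets whose names end in _a, _s or _x can be matched by more than 1 transcript. With _x these can be transcripts of other genes, so neighbouring myosin genes may share signal in Myh1 1427868_x_at.

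Titin, the giant spring that links the Z-disc to the thick filament, had 6 probe sets, of which 4 fell. 1431928_at read -0.42, 1.08, 0.10 and 0.41 in unstressed and 0.33, -0.0054, -0.25 and 0.0096 in stressed wounds at day 6. At day 14 its values were 0.24, 0.26, -1.37 and 0.83 in unstressed and -2.42, -2.19, -2.40 and -1.41 in stressed wounds. No stressed array overlapped an unstressed one, by a gap between -1.37 and -1.41, and the difference was -2.09 (SE 0.40, adjusted p = 0.0068). 1427446_s_at read -0.42, 0.86, -0.0054 and 0.49 in unstressed and 0.17, -0.79, -0.33 and 0.33 in stressed wounds at day 6 and 0.97, 1.01, -0.67 and 1.09 in unstressed and -5.16, -2.65, -1.91 and 0.069 in stressed wounds at day 14. Stressed replicate 4 lay inside the unstressed range, and the difference was -3.01 (SE 0.76, adjusted p = 0.028). 1427445_a_at read -0.16, 0.73, 0.14 and 0.50 in unstressed and 0.27, -0.53, -0.16 and 0.42 in stressed wounds at day 6 and 0.97, 0.94, -0.54 and 0.91 in unstressed and -3.81, -1.83, -1.77 and 0.023 in stressed wounds at day 14. Its stressed replicate 4 likewise lay inside the unstressed range, and it differed by -2.42 (SE 0.57, adjusted p = 0.021).

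The Ttn probe set 1444083_at read 0.77, 1.56, 0.86 and 1.81 in unstressed and 1.60, 0.59, 0.56 and 1.60 in stressed wounds at day 6 and 0.79, 0.78, -1.72 and -0.44 in unstressed and -3.40, -1.93, -2.05 and -1.18 in stressed wounds at day 14. Both day 14 groups were low against day 6 here, and the loading difference was -1.99 (SE 0.54, adjusted p = 0.037), a call lost with the replicate block (adjusted p = 0.063). 1444638_at had the same course, with 1.01, 1.61, 0.82 and 2.09 in unstressed and 1.93, 1.21, 1.04 and 1.92 in stressed wounds at day 6 and 0.55, 0.16, -1.16 and -0.73 in unstressed and -1.41, -1.84, -1.51 and -0.22 in stressed wounds at day 14, but its loading difference of -0.95 (SE 0.41, adjusted p = 0.17) did not pass. 1446450_at was nearly flat, with -0.12, -0.028, 0.10 and 0.028 in unstressed and -0.23, 0.033, -0.12 and -0.17 in stressed wounds at day 6 and 0.43, 0.52, 0.38 and 0.15 in unstressed and 0.28, 0.29, 0.45 and 0.46 in stressed wounds at day 14. Its loading difference was -0.00080 (SE 0.11, adjusted p = 1). The remaining thick filament genes were the fast light chains Mylpf, at -2.14 (SE 0.64, adjusted p = 0.055), and Myl1, at -1.78 (SE 0.65, adjusted p = 0.11), and neither passed.

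Thin filament genes fell in 7 of 8 probe sets and all 6 genes, with a median of -2.69. Tnni2, the inhibitory subunit of fast troponin, led with probe set 1438609_x_at, which read -0.069, 0.37, 0.075 and 0.20 in unstressed and 0.081, 0.32, -0.14 and 0.069 in stressed wounds at day 6. At day 14 it read 0.45, 0.54, -0.45 and 0.81 in unstressed and -3.28, -2.001, -2.08 and -0.26 in stressed wounds. Stressed replicates 1, 2 and 3 lay below all unstressed arrays, replicate 4 lay above unstressed replicate 3, and the difference was -2.24 (SE 0.44, adjusted p = 0.0078). A second Tnni2 probe set fell by -2.89 (SE 0.63, adjusted p = 0.014), and the third, at -0.49 (SE 0.19, adjusted p = 0.12), did not pass. Lmod2, which nucleates and lengthens actin filaments, fell by -3.16 (SE 0.65, adjusted p = 0.01).

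Acta1, the actin of skeletal muscle, read 0.042, 0.20, -0.042 and 0.12 in unstressed and 0.16, -0.30, 0.059 and 0.16 in stressed wounds at day 6. At day 14 it read 0.16, 0.074, -0.34 and 0.20 in unstressed and -3.90, -1.59, -1.62 and -0.11 in stressed wounds. The unstressed arrays differed little from day 6, and the 4 stressed arrays spread from -3.90 to -0.11. Acta1 fell by -1.83 (SE 0.51, adjusted p = 0.04), a call lost in 11 of the 16 fits without 1 array. Calcium-binding Tnnc2 differed by -2.49, tropomyosin-binding Tnnt3 by -2.94 and nebulin (Neb), the ruler of the thin filament, by -2.89, and all 3 passed.

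Z-disc genes fell in 8 of 11 probe sets and 7 of 8 genes, with a median of -2.70. Ldb3, a scaffold that binds alpha-actinin, led with 1416752_at, which read 0.0028, 0.32, 0.075 and 0.30 in unstressed and 0.22, -0.0028, -0.057 and 0.32 in stressed wounds at day 6. Its day 14 values were 0.39, 0.32, -1.27 and 0.61 in unstressed and -4.42, -2.97, -2.78 and -1.09 in stressed wounds. Unstressed replicate 3 lay just below stressed replicate 4, and the other arrays did not overlap. The difference was -2.83 (SE 0.51, adjusted p = 0.0055). A second Ldb3 probe set fell by -3.35 (SE 0.66, adjusted p = 0.0085), and the third, at -0.68 (SE 0.24, adjusted p = 0.1), did not pass.

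Myot, an actin cross-linker of the Z-disc, fell by -3.94 (SE 0.75, adjusted p = 0.0068), the largest difference of this role. Smpx fell by -3.47 (SE 0.70, adjusted p = 0.0097). Its stressed replicate 1, at -5.86, was the lowest value of all member probe sets. Actn2, the alpha-actinin of all fibre types, differed by -2.84, the calsarcins Myoz1 and Myoz2 by -2.17 and -2.18, and the titin cap Tcap by -2.70, and all 4 passed. Actn3, the alpha-actinin of fast fibres, differed by -2.22 (SE 0.81, adjusted p = 0.11) and did not pass. Its unstressed replicate 3, at -3.59, was below stressed replicates 2, 3 and 4.

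Genes of excitation-contraction coupling and calcium handling fell in 6 of 18 probe sets and 6 of 9 genes, with a median of -1.34. Cacna1s, the voltage sensor of the transverse tubule, led them with 0.64, 1.37, 0.49 and 0.99 in unstressed and 0.41, -0.054, -0.038 and 0.22 in stressed wounds at day 6. On day 14 it read 0.55, 0.038, -1.12 and -0.51 in unstressed and -4.07, -3.34, -3.63 and -0.68 in stressed wounds. Stressed replicates 1, 2 and 3 were below -3, and replicate 4 lay among the unstressed arrays. Cacna1s fell by -2.67 (SE 0.55, adjusted p = 0.01). Atp2a1, the fast calcium pump of the sarcoplasmic reticulum, fell by -3.15 (SE 0.65, adjusted p = 0.011). Ryr1, the calcium release channel, fell in 1427306_at by -2.75 (SE 0.62, adjusted p = 0.016). Jph1, which ties the transverse tubule to the reticulum, fell in 1438428_at by -2.09 (SE 0.44, adjusted p = 0.012). Casq1, the calcium store protein, fell by -2.34 (SE 0.63, adjusted p = 0.036).

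Pvalb, the calcium buffer of fast fibres, read 0.30, 0.34, -0.033 and 0.033 in unstressed and 0.95, 0.69, -0.12 and 0.94 in stressed wounds at day 6. The day 14 arrays read 1.24, 1.13, -2.09 and 0.71 in unstressed and -4.39, -4.13, -3.38 and -0.12 in stressed wounds. Unstressed replicate 3 was low with the stressed arrays and stressed replicate 4 was near 0, so the groups overlapped. Pvalb fell by -3.25 (SE 0.81, adjusted p = 0.025). Sln, the small inhibitor of the calcium pump, read 0.43, 1.51, 1.09 and 0.57 in unstressed and 0.38, 0.25, 0.71 and 0.83 in stressed wounds at day 6 in 1420884_at. At day 14 that probe set read 0.24, -0.32, -1.70 and -0.075 in unstressed and -4.25, -2.21, -2.51 and 0.075 in stressed wounds. It differed by -1.76 (SE 0.64, adjusted p = 0.11) and did not pass. The other Sln probe set, 1420883_at, read -0.14, -0.041, 0.027 and -0.099 in unstressed and -0.20, -0.020, 0.11 and -0.24 in stressed wounds at day 6 and 0.40, 0.23, 0.45 and 0.12 in unstressed and 0.10, 0.19, 0.19 and 0.34 in stressed wounds at day 14. It varied little, with a loading difference of -0.096 (SE 0.11, adjusted p = 0.66).

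Triadin (Trdn), which links the release channel to Casq1, had 6 probe sets and no call. 1426144_x_at, 1426142_a_at and 1426143_at differed by -1.64, -1.51 and -1.17, with adjusted p of 0.094, 0.083 and 0.092. With the replicate block all 3 passed, with adjusted p of 0.017, 0.016 and 0.01. 1451801_at and 1451940_x_at differed by -0.41 and -0.12, and 1426134_at by 0.029, all with an adjusted p of 0.28 or more. In the first 3 of the 6, the day 14 unstressed arrays were already below the day 6 arrays in replicates 1, 2 and 3. Jph2, the junctophilin better known from heart, differed by -0.49 and -0.095 and did not pass. The second Ryr1 probe set, 1457347_at, differed by -0.87 (SE 0.41, adjusted p = 0.21), and the second of Jph1, 1421520_at, by -0.46 (SE 0.17, adjusted p = 0.11), though its 4 stressed arrays, 1.08, 1.16, 0.68 and 1.04, lay below the 4 unstressed ones, 1.42, 1.68, 1.40 and 1.30.

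Genes of energy supply fell in 7 of 10 probe sets and 7 of 8 genes, with a median of -3.05. Ckmt2, the creatine kinase of muscle mitochondria, led with -0.30, 0.014, -0.088 and 0.67 in unstressed and 0.27, -0.014, 0.11 and 0.46 in stressed wounds at day 6. Day 14 arrays gave 1.71, 2.22, -0.90 and 1.79 in unstressed and -3.86, -3.98, -3.76 and -1.25 in stressed wounds. The groups did not overlap, 3 unstressed arrays were above every day 6 array, and 3 stressed arrays lay close together near -4. The means were 1.21 ± 1.42 (SD, n = 4) and -3.21 ± 1.31 (SD, n = 4), and the difference was -4.42 (SE 0.62, adjusted p = 0.0013), 21.4-fold lower. Its promoter window above held 1 E-box and none of the other 3 patterns.

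Ckm, the cytosolic creatine kinase of muscle, read -0.0063, 0.19, -0.21 and 0.036 in unstressed and 0.51, 0.43, -0.061 and 0.48 in stressed wounds at day 6 in 1417614_at. Its day 14 values were 1.07, 1.03, -0.48 and 0.84 in unstressed and -4.23, -1.85, -2.94 and 0.0063 in stressed wounds. Stressed replicate 4 lay above unstressed replicate 3, and the other 3 stressed arrays were far below. The difference was -2.86 (SE 0.62, adjusted p = 0.013). The second Ckm probe set, 1444643_at, read 0.068, 0.031, -0.40 and -0.19 in unstressed and 0.91, -0.29, -0.068 and 0.63 in stressed wounds at day 6 and 1.18, 1.19, -0.26 and 1.54 in unstressed and -0.083, 0.11, -0.031 and 0.17 in stressed wounds at day 14. Here the stressed arrays stayed at the day 6 range while 3 unstressed arrays stood above 1, and the difference of -0.87 (SE 0.32, adjusted p = 0.12) did not pass.

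Pygm, the glycogen phosphorylase of muscle, fell by -3.70 (SE 0.68, adjusted p = 0.0057). Adssl1, an enzyme of the purine nucleotide cycle, fell by -3.45 (SE 0.57, adjusted p = 0.0032) with no overlap between the groups, and Ampd1 of the same cycle by -1.98 (SE 0.56, adjusted p = 0.044). The glycolytic enzymes Pgam2 and Eno3 fell by -3.30 and -3.24. Myoglobin (Mb), the oxygen store, did not pass in either probe set: 1451203_at differed by -1.61 (SE 0.62, adjusted p = 0.13) and 1422420_at by 0.19 (SE 0.18, adjusted p = 0.59), opposite in sign.

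**Figure D2:**
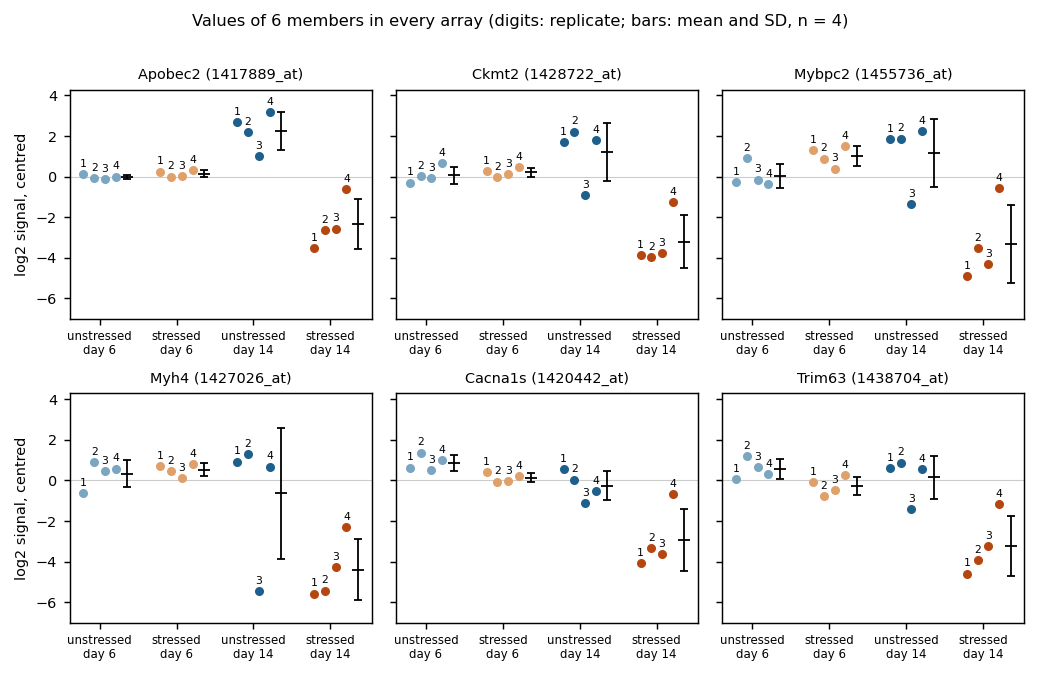
Centred log2 signal (vertical axis) of 6 members in each of the 16 arrays by group (horizontal axis); digits give the replicate, and bars the mean and SD of 4 arrays. Apobec2 and Ckmt2 do not overlap between the day 14 groups, whereas Myh4 in unstressed replicate 3, at -5.45, lies with the stressed arrays.

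The other 4 genes are regulators and had 3 calls in 7 probe sets, with a median of -1.20. Apobec2, a muscle protein of the cytidine deaminase family, had the largest negative loading difference of all 34945 probe sets. Its probe set 1417889_at read 0.11, -0.092, -0.12 and 0.00050 in unstressed and 0.24, -0.00050, 0.034 and 0.32 in stressed wounds at day 6. On day 14 it read 2.68, 2.17, 1.01 and 3.19 in unstressed and -3.53, -2.64, -2.56 and -0.63 in stressed wounds. All 4 unstressed arrays were above and all 4 stressed arrays below every day 6 array. The means were 2.26 ± 0.93 (SD, n = 4) and -2.34 ± 1.22 (SD, n = 4), and the difference was -4.61 (SE 0.49, adjusted p = 0.00013), 24.3-fold lower. With the day 14 arrays alone the SE of that difference was 0.64. The second Apobec2 probe set, 1444348_at, read 0.20, 0.11, 0.31 and -0.052 in unstressed and 0.77, 0.24, 0.97 and 0.67 in stressed wounds at day 14 and differed the other way by 0.52 (SE 0.16, adjusted p = 0.054), without passing.

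Asb5, a substrate adaptor of a ubiquitin ligase, fell by -3.66 (SE 0.56, adjusted p = 0.0022) with no overlap between the groups. Trim63 encodes the ubiquitin ligase MuRF1, which is raised in wasting muscle. It read 0.075, 1.21, 0.65 and 0.33 in unstressed and -0.075, -0.78, -0.46 and 0.26 in stressed wounds at day 6. The day 14 arrays read 0.62, 0.88, -1.43 and 0.57 in unstressed and -4.59, -3.94, -3.22 and -1.17 in stressed wounds. Stressed replicate 4 lay just above unstressed replicate 3, and the difference was -3.39 (SE 0.61, adjusted p = 0.0052).

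Fbxo32 encodes atrogin-1, the other ubiquitin ligase known from wasting muscle. Probe set 1448747_at read 0.98, 1.99, 1.31 and 1.21 in unstressed and 0.11, -0.27, -0.32 and 0.74 in stressed wounds at day 6 and -0.78, 0.39, 0.077 and 0.64 in unstressed and -0.21, -0.89, -1.49 and -0.65 in stressed wounds at day 14. 1435265_at read 0.72, 1.71, 0.37 and 0.99 in unstressed and 0.0033, -0.82, -0.16 and 0.33 in stressed wounds at day 6 and -0.14, -0.0033, -0.11 and 0.83 in unstressed and -0.65, -0.84, -0.61 and 0.077 in stressed wounds at day 14. 1417522_at read 0.63, 1.84, 0.29 and 0.40 in unstressed and -0.20, -0.54, -0.19 and 0.19 in stressed wounds at day 6 and -0.96, 0.61, 0.37 and 1.45 in unstressed and -0.53, -0.68, -1.16 and -0.94 in stressed wounds at day 14. In all 3 the 4 stressed arrays lay below the 4 unstressed ones at day 6, as they did in 3.05% of all probe sets, and the groups overlapped at day 14. The day 14 differences were -0.89 (SE 0.33, adjusted p = 0.12), -0.65 (SE 0.31, adjusted p = 0.22) and -1.20 (SE 0.41, adjusted p = 0.088), and none passed.

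**Figure D3:**
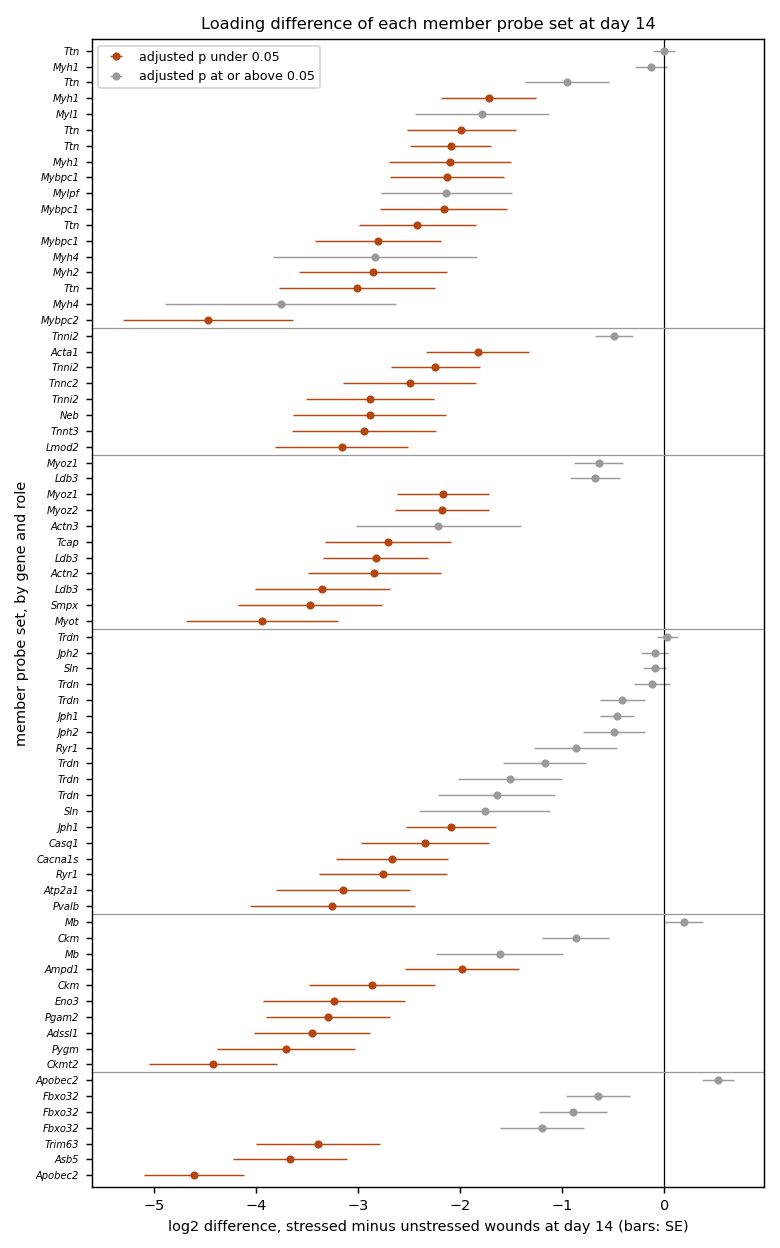
Log2 difference between stressed and unstressed wounds at day 14 (horizontal axis, bars are SE) for each of the 72 member probe sets (vertical axis, by role). Coloured points are the 42 with an adjusted p under 0.05, all below 0, and grey points the other 30.

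At day 6, after 48 hours of loading, 0 of the 72 probe sets passed with limma, against 0.0143% of all probe sets that rose and 0.0114% that fell. The median difference was -0.074, with 49 of the 72 negative, and 3 had an unadjusted p under 0.05. The 4 stressed arrays lay wholly below the unstressed ones in 8 of the 72, or 11.1%, the same share as at day 14, against 3.05% of all probe sets. These were the 3 probe sets of Fbxo32 and 1 each of Lmod2, Tcap, Smpx, Cacna1s and Trdn. The 3 with an unadjusted p under 0.05 were the probe sets of Fbxo32, at -1.31 (SE 0.33, adjusted p = 0.34), -1.11 (SE 0.31, adjusted p = 0.42) and -0.97 (SE 0.41, adjusted p = 0.8). With array weights, and likewise after quantile normalization, 1448747_at and 1435265_at passed. Ryr1 1457347_at followed them in rank, at -0.77 (SE 0.41, adjusted p = 0.92). By role, the medians lay between -0.83 for the regulators and 0.056 for energy supply.

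The loading difference at day 14 was set against that at day 6 by the interaction term. Apobec2 1417889_at alone of the 72 passed, at -4.78 (SE 0.69, adjusted p = 0.047), against 0.00572% of all probe sets with a negative and 0.00286% with a positive interaction past the threshold. Of the 72 interactions 65 were negative, with a median of -1.97, and 47 had an unadjusted p under 0.05. Mybpc2 had the most negative interaction of all probe sets, -5.46 (SE 1.18, adjusted p = 0.16), and Ckmt2 and Asb5 followed with -4.55 (SE 0.88, adjusted p = 0.12) and -3.33 (SE 0.79, adjusted p = 0.21), none past the threshold. The Apobec2 call was kept in 3 of the 16 fits that left out 1 array. Of the 72, 30 passed without stressed replicate 4 of day 14, against 0.953% of all probe sets. Without unstressed replicate 3 of day 14 7 passed, against 0.189%, and 52 did in the arrays of low Xist alone, against 7.87%.

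The change from day 6 to day 14 was read within each condition, and the test of the difference between the conditions is the interaction above, which 1 of the 72 passed. In unstressed wounds 6 probe sets rose and 7 fell, against 16.8% and 23.4% of all probe sets, and the median was -0.069 beside -0.046 over all. Jph1 1421520_at rose by 1.51 (SE 0.17, adjusted p = 1.7e-05) and Apobec2 1417889_at by 2.29 (SE 0.49, adjusted p = 0.002), and in both the groups did not overlap. The day 14 arrays lay wholly above the day 6 arrays in 4 of the 72, against 5773 of all 34945 probe sets. Ryr1 1457347_at fell by -2.12 (SE 0.41, adjusted p = 0.00098) and Ttn 1444638_at by -1.67 (SE 0.41, adjusted p = 0.0049). Ckm 1444643_at also rose, at 1.03 (SE 0.32, adjusted p = 0.019), and Fbxo32 1448747_at fell by -1.29 (SE 0.33, adjusted p = 0.0069).

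In stressed wounds 56 probe sets fell and 4 rose between the days, against 26.6% and 18.7% of all probe sets. Every one of the 43 genes had at least 1 probe set that fell, against 7196 of all 18193 genes. The median was -2.32 beside -0.071 over all. The day 14 arrays lay wholly below the day 6 arrays in 39 of the 72, or 54.2%, against 23.4% of all probe sets. Trdn 1451801_at, Pgam2, Asb5 and Ttn 1444638_at led by p, with differences of -1.40, -3.92, -3.64 and -2.77 and adjusted p of 0.00022, 0.00018, 0.00017 and 0.00014.

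Several genes without a call for loading at day 14 were among those that fell with time under stress. Myh4 1427026_at fell by -4.92 (SE 1.13, adjusted p = 0.0029), Sln 1420884_at by -2.76 (SE 0.64, adjusted p = 0.0031) and Actn3 by -3.18 (SE 0.81, adjusted p = 0.0053). Genes with a call for loading at day 14 fell with time as well. The heavy chains Myh1 1427868_x_at and Myh2 fell by -2.02 (SE 0.60, adjusted p = 0.013) and -2.49 (SE 0.73, adjusted p = 0.012), Acta1 by -1.83 (SE 0.51, adjusted p = 0.0088) and Pvalb by -3.62 (SE 0.81, adjusted p = 0.0023). Ckm 1417614_at fell by -2.59 (SE 0.62, adjusted p = 0.0035) and Trim63 by -2.97 (SE 0.61, adjusted p = 0.0014). The 4 that rose were Jph1 1421520_at, Apobec2 1444348_at, Ttn 1446450_at and Sln 1420883_at, by 1.05, 0.72, 0.49 and 0.29. The last 2 are among 7 member probe sets whose range over the 16 arrays was below the median of all probe sets.

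Other muscle genes, listed with earlier results of these data known, were read beside them for loading at day 14. Of 106 probe sets of 51 other mature muscle genes, 53 fell and 0 rose, against 4.04% and 3.31% of all probe sets. Of the others 3 were positive at an unadjusted p under 0.05, and the median of the 106 was -1.05. Slc2a4, the insulin-responsive glucose carrier of muscle and fat, fell by -2.05 (SE 0.27, adjusted p = 0.00076), the chaperone Cryab by -2.87 (SE 0.40, adjusted p = 0.0013) and the heart and muscle subunit Cox7a1 of cytochrome oxidase by -2.90 (SE 0.42, adjusted p = 0.0017). Among 37 probe sets of slow and cardiac type genes, 3 fell and 1 rose, against 4.04% and 3.31% of all probe sets. The median of the 37 was 0.069. The stretch-responsive genes Ankrd2 and Csrp3 fell by -3.05 (SE 0.39, adjusted p = 0.00057) and -3.10 (SE 0.63, adjusted p = 0.0094), and the calcium-binding Hrc by -1.35 (SE 0.36, adjusted p = 0.035). The slow troponin C gene Tnnc1 rose by 2.29 (SE 0.65, adjusted p = 0.045).

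Among 32 probe sets of regeneration genes and embryonic myosins, 3 rose and 1 fell, against 3.31% and 4.04% of all probe sets. The median of the 32 was 0.11. Ncam1, an adhesion molecule of young and denervated fibres, rose by 1.48 (SE 0.31, adjusted p = 0.012) in 1 of its probe sets and 1.71 (SE 0.50, adjusted p = 0.049) in another, and Megf10 of satellite cells by 0.71 (SE 0.21, adjusted p = 0.049). Vgll2, a cofactor of muscle differentiation, fell by -1.48 (SE 0.31, adjusted p = 0.011). The embryonic and perinatal myosins Myh3 and Myh8 differed by 1.999 (SE 0.70, adjusted p = 0.094) and 1.27 (SE 0.98, adjusted p = 0.48) and did not pass. Of 14 probe sets of the neuromuscular junction and denervation 0 passed with limma, and 2 had an unadjusted p under 0.05.

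Markers of other cell types moved at day 14 as well, and their part in the muscle results was not tested. Of all probe sets, 4.04% fell and 3.31% rose for loading at that day. Of 19 probe sets of mature adipocytes 14 fell and 0 rose, with 17 at an unadjusted p under 0.05, all negative. Their mean was -2.03, -1.67, -0.86 and 0.23 in stressed replicates 1 to 4 and 0.88, 0.61, 0.30 and 1.34 in the unstressed ones, so stressed replicate 4 was again the highest of its group. Adiponectin (Adipoq) fell by -4.09 (SE 0.90, adjusted p = 0.014) and perilipin 4 (Plin4) by -2.76 (SE 0.49, adjusted p = 0.0049). Of 13 probe sets of brown or beige adipocytes 6 fell. Cox7a1 and Cox8b stand both on that list and among the other mature muscle genes.

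Fibroblast markers rose in 9 of 16 probe sets and macrophage markers in 7 of 11, against 3.31% of all probe sets. None of them fell, and no negative one had an unadjusted p under 0.05. The fibroblast mean ran from -0.21 to 0.15 in stressed and from -1.99 to -0.79 in unstressed arrays of day 14, and the macrophage mean from -1.04 to 0.0080 and from -2.43 to -1.31. Of 12 smooth muscle probe sets 1 fell, against 4.04% of all probe sets. Keratinocyte markers passed in 0 of 17 and endothelial ones in 0 of 8 with limma, with 6 and 3 at an unadjusted p under 0.05. Because values were centred, whether any of these markers was at or near 0 could not be read.

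**Figure D4:**
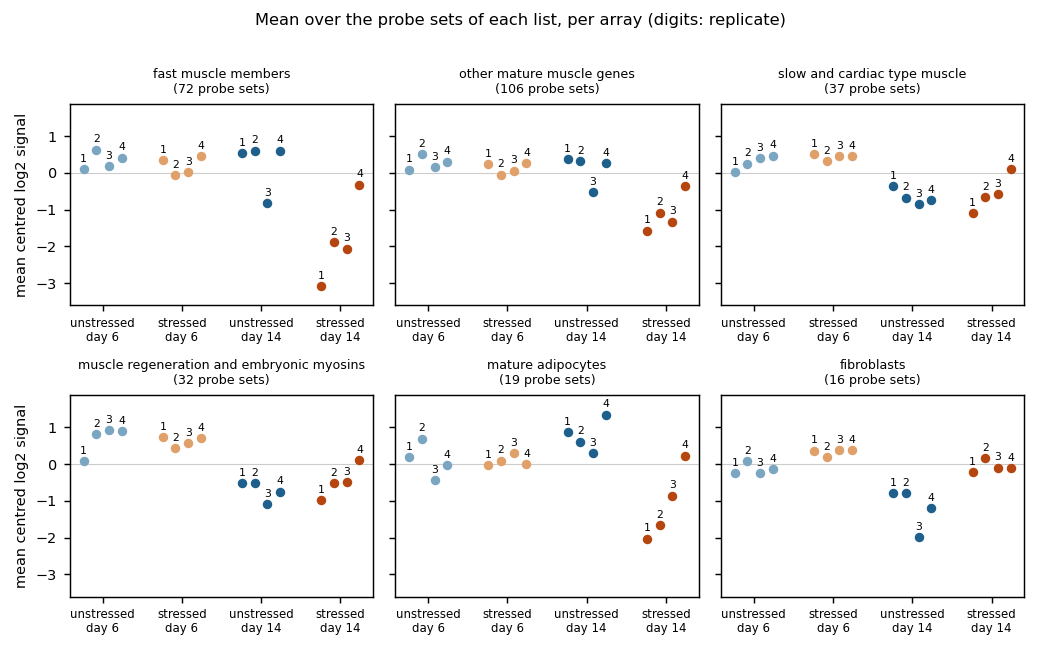
Mean centred log2 signal (vertical axis) over the probe sets of 6 gene lists in each array by group (horizontal axis); digits give the replicate. All the muscle lists shown and the adipocyte markers place stressed replicate 4 of day 14 above replicates 1, 2 and 3. The fibroblast markers place all 4 stressed arrays of that day above the unstressed ones.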

How the data were processed

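The series holds 16 Affymetrix arrays, grouped by the labels. Per the series design text, RNA was hybridized to GeneChip arrays and the authors processed the intensities with GeneSpring GX 11.0; how the background was corrected and how arrays were summarized and scaled is not given in the sources used here. Each probe set of the deposited log2 values had been centred, around a reference that is unknown. The base is unstated: a largest range of 10.08 over arrays exceeds the 4.82 of log10 of a 16-bit scan, and natural logs were not excluded. Probe sets were named from the platform annotation: of 45101 probe sets, 34945 with 1 symbol were tested, and 932 with several symbols, 9160 with none and 64 controls were not.

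Differences were fitted with limma 3.58.1 (lmFit and eBayes, R 4.3.3), two-sided, on all 16 arrays and 34945 probe sets with 4 group means and no block, with Benjamini-Hochberg adjustment over all probe sets and a threshold of 0.05. The fit was tested on simulated data. An array counted as high in Xist above 3. The 5 comparisons were loading at each day, their difference, and time in each condition.

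The members and all lists were chosen with earlier results of these data known. Named with values were, per role, the 3 probe sets with the smallest p for loading at day 14; the 4 with the smallest p in every other comparison; genes with probe sets over 1 apart that differ in sign; probe sets higher by over 0.5; and Myh4, Myh2, Myh1, Acta1, Ckm, Pvalb, Ttn, Sln, Trim63 and Fbxo32. Every array is given for the last genes and the first of each role. Other names were added after their values were seen, to account for each member. In the other lists up to 3 genes with the smallest p were named, beside Myh3, Myh8, Adipoq and Plin4.

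Whether replicate numbers pair arrays is not known, and they were treated as a pairing at day 14 by a rule. Deviations from the group means over all probe sets correlated at 0.25, 0.17, 0.26 and 0.14 in same-numbered day 14 arrays, against -0.42 to -0.0013 at day 6. Numbers were taken to pair arrays where every such correlation was over 0.1. Different-numbered day 14 arrays correlated at 0.069 to 0.23 where both were of 1 Xist class and at -0.28 to -0.048 where they were not, so number and Xist class are hard to tell apart here. The alternatives tried were 1 probe set per gene, quantile normalization, a filter on little variation, array weights, and only the groups compared. Further ones were the replicate number or the Xist class as a block, only the low-Xist arrays, and leaving out each array. Another kept the high-Xist arrays of day 14 and all day 6 arrays. The 2 fits that joined a block with the day 14 or compared arrays alone were added after the data were seen.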

Additional observations from a re-analysis of the deposited data

Results flagged for a closer look

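In groups of 4 arrays, 116 sets of values were examined for an array whose gap to the nearest other took up most of the group's range (Dixon's test at the 95% level), and 15 had one. For independent sets chance alone gives about 1 in 20, or 5.8. These sets share the same arrays and many move together, so 15 cannot be weighed against that number. Most were the low unstressed replicate 3 of day 14. It stood apart in Myh4 1427026_at at -5.45, Pvalb at -2.09, Trim63 at -1.43, Mybpc2 at -1.36, Ldb3 1416752_at at -1.27, Ckmt2 at -0.90, Ttn 1427446_s_at at -0.67, Ttn 1427445_a_at at -0.54 and Ckm 1417614_at at -0.48. The median over the 72 probe sets, -0.85, stood apart there too.

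Stressed replicate 4 of day 14 stood apart as the highest array in Ckmt2 at -1.25 and in Myh1 1452465_at at 0.19. The others were unstressed replicate 4 of day 14 in Fbxo32 1435265_at at 0.83, unstressed replicate 2 of day 6 in Mybpc2 at 0.90 and stressed replicate 3 of day 6 in Ckm 1417614_at at -0.061. The loading difference of Apobec2 1417889_at at day 14 differed from that at day 6 by the interaction term, at -4.78.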

How the results depend on the processing

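The number of called probe sets for loading at day 14, 42 of 72, went to 1 with only the arrays of the groups compared, to 2 with only the high-Xist arrays of day 14, to 7 with the replicate block in the day 14 arrays alone, and to 4 with the Xist class as a block there. With the replicate block in all 16 arrays it was 42, of which 39 were shared with the fit without that block. The counts of the other comparisons were 0 for loading at day 6, 1 for the interaction, and 13 and 60 for time, with 12 and 59 shared. The count at day 14 was 27 to 54 over fits without 1 array. The 7 calls with the replicate block in the day 14 arrays alone were Apobec2, Adssl1, Ckmt2, Lmod2, Mybpc2, Pgam2 and Ttn 1431928_at. The 4 calls with the Xist class as a block there were Apobec2, Asb5, Ckmt2 and Adssl1. The same count was 29 after quantile normalization, 58 with array weights, 49 with the Xist class as a block in all arrays and 31 of 43 with 1 probe set per gene, against 1.04%, 14.7%, 11.7% and 8.15% of all probe sets tested in those fits. The median of the 72 differences moved from -2.16 to -0.998 with only the high-Xist arrays of day 14. With only the low-Xist arrays it was -3.40, and both settings kept the day 6 arrays in the fit. Without 1 array the median lay between -2.77 and -1.75.

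For loading at day 6 the count of 0 became 2 after quantile normalization (1.42% of all probe sets) and 2 with array weights (1.69%), and stayed 0 without any 1 array. For the interaction the count of 1 became 0 after quantile normalization. It also became 0 with the high-Xist arrays of day 14 beside all day 6 arrays, which were low in Xist. In that setting Xist class and day went together, for time as well. With array weights the interaction count was 41 (2.48% of all probe sets), with only the low-Xist arrays 52 (7.87%), and without 1 array 0 to 30. For time in unstressed wounds the count of 13 became 7 of 43 with 1 probe set per gene, 22 with array weights and 20 with only the low-Xist arrays, each a smaller share than the 55%, 49.7% and 36.5% over all probe sets tested there, and was 9 to 18 without 1 array. For time in stressed wounds the 60 calls, against 45.3% of all probe sets, became 41 of 43 with 1 probe set per gene, against 58.3%. The other settings gave 42, with only the high-Xist arrays of day 14 (34.6%), to 61, with only the low-Xist arrays (47%). Fits without 1 array gave 55, without stressed replicate 1 of day 6 (37.7%), to 61, without unstressed replicate 2 of day 6 (44.9%).

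Signs changed in some named results. Myh4 1458368_at over time under stress became 0.073 with the Xist class as a block. With only the high-Xist arrays of day 14, loading at that day gave -0.16 for Trdn 1426134_at and -0.18 for Mb 1422420_at. It gave 0.078 for Ttn 1444638_at and 0.19 for Ttn 1446450_at. Over the fits without 1 array, Ttn 1446450_at ran from -0.075 to 0.050, Trdn 1426134_at from -0.026 to 0.11 and Trdn 1451940_x_at from -0.22 to 0.080. Over all named probe sets and settings, 1879 values kept direction and side of the threshold, 218 lost their call, 63 gained one and 12 changed sign. The causes were not tested. How far signals lie over background could not be judged from centred values.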
